A study of Homo sapiens with 6 samples.

Results

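Amino acids enter and leave a cell through carriers of the plasma membrane, most of them encoded by solute carrier (SLC) genes. Here 10 such genes were followed in K562, a human erythroleukemia line: SLC7A5, SLC3A2, SLC43A1, SLC7A1, SLC1A4, SLC1A5, SLC6A9, SLC38A1, SLC38A2 and SLC36A1. They were picked out by gene symbol, with earlier results of these data known, and all 10 were found among the 46427 genes of the expression files. The cystine carrier gene SLC7A11 was kept apart from the set.

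RNA came from 6 libraries of wild-type K562 cells grown in RPMI-1640 medium with fetal bovine serum. The 3 vehicle libraries had been given 0.1% DMSO and the 3 treated libraries 10 µM HR-19011, a compound named by a code, each for 24 h. The DMSO content of the treated cultures is not stated in the labels. Nor do they say whether the libraries of a group are separate cultures. The p-values below therefore measure no more than the spread between these libraries, which may be technical.

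Carriers differ in what drives them. Exchangers such as the dimer of SLC7A5 and SLC3A2 bring in large neutral amino acids against the export of another amino acid, often glutamine, whereas sodium-coupled carriers such as SLC38A2 and SLC6A9 can concentrate their substrates inside the cell. When translation initiation factor eIF2α is phosphorylated, the transcription factor ATF4 is made in greater amounts and is known to induce several amino acid carriers. The series title places HR-19011 on that pathway, and the comparison asks how carrier RNA stood in treated against vehicle cells.

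ATF4-containing dimers are known to bind C/EBP-ATF response elements. The letters TGATGNAAN were therefore searched on both strands of the 18 RefSeq start-site windows of the 10 genes (GRCh38.p14, 250 bases before to 50 bases after each annotated start). A match was found in 5 of the 18 windows, each in a different gene, against 3.61% of 35116 windows of all genes. Counted by gene, 5 of 10 had a match against 4.45% of 27305 genes. The set was picked by symbol, but with earlier results of these data known, and ATF4 is known to induce several such carriers. Its share of matches may therefore not be independent of that choice. The shares by gene are also unlike in make-up, with 18 windows for 10 genes against 35116 windows for 27305 genes. Those 27305 were not limited to tested genes. No conclusion on enrichment is drawn. The stretches holding the 5 matches are shown. Each is 30 bases long, written 5′ to 3′ on the gene's own strand, with the match in capitals.
SLC1A4: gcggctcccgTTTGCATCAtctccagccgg
SLC3A2: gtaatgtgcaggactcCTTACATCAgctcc
SLC7A1: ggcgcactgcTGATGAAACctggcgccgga
SLC38A1: cagacccgaaTGATGAAAAgggatcagcta
SLC1A5: aggaagtggcTGATGCAAGctgtccagggt

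The SLC1A4 stretch lies at chr2:64989381-64989410 on the plus strand and the SLC3A2 stretch at chr11:62881719-62881748 on the plus strand, and in both the match reads on the opposite strand. The SLC7A1 stretch lies at chr13:29595662-29595691, the SLC38A1 stretch at chr12:46266501-46266530 and the SLC1A5 stretch at chr19:46784892-46784921, all on the minus strand. The matches of SLC1A4 and SLC38A1 straddle an annotated start, those of SLC3A2 and SLC7A1 begin 37 and 8 bases into the transcribed part, and that of SLC1A5 begins 97 bases upstream of one of its starts. The E-box CACGTG, a palindrome bound by MYC and related factors, was found in 4 of the 18 windows against 7.26% of all windows, and these 4 belong to SLC7A5, SLC43A1, SLC1A5 and SLC36A1. No window of the set held both motifs. SLC6A9 and SLC38A2 had neither motif in their windows. SLC36A1 also had no TGATGNAAN match. Its E-box matches, which begin 43 and 8 bases before an annotated start, are not shown. The E-box stretches of SLC7A5 (chr16:87869620-87869649) and SLC43A1 (chr11:57515797-57515826), both on the minus strand, are shown. Both genes encode large neutral amino acid carriers, and neither had a TGATGNAAN match.
SLC7A5: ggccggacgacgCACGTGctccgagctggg
SLC43A1: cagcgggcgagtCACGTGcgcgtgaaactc

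A match is a description of the letters in these windows, and binding was not measured. Whether matches go with the size of a gene's change was not tested.

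Levels are given as FPKM, fragments per kilobase of transcript scaled to library size, which are per length and so can be compared between genes. Of 46427 genes, the 11856 whose mean over the 6 libraries reached 1 FPKM entered a limma test on log2(FPKM + 1), and a gene was called at a Benjamini-Hochberg adjusted p under 0.05 over all of them. All 10 transporter genes passed that filter. Of all tested genes, 46.4% were called higher and 38.0% lower, so a call alone is common in this comparison. TMM scaling sets the trimmed mean of log ratios between libraries to 0. That mean was taken over genes above 0, including those below the filter, so the tested genes themselves are not centred. After TMM scaling 4145 genes were higher and 5945 lower, in place of 5506 and 4503, and the median log2 fold change of tested genes was -0.14. Over all genes tested the median log2 fold change was 0.07 as deposited and shifted by -0.21 under TMM, 0.12 under conversion to TPM and -0.12 under quantile normalization. Read counts were not recovered, and the depth of the libraries is unknown.

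Summed FPKM per library ranged from 456639 to 467595 in vehicle and from 420661 to 427819 in HR-19011, and mitochondrially encoded genes made up 20.6% ± 0.564 of it in vehicle and 14.2% ± 0.221 in HR-19011 (SD, n = 3). Correlations of log2(FPKM + 1) ranged from 0.997 to 0.998 within groups and from 0.891 to 0.894 across them. The labelled cell type was seen in its markers: all 10 erythroleukemia markers reached the filter, with a summed level of 9913 to 10098 FPKM in vehicle and 4285 to 4509 in HR-19011, and 9 of them were called lower. Of 10 lymphoid and mature myeloid markers, MS4A1 and NCAM1 were listed at 0 in all libraries and 2, CD3D and LYZ, reached the filter, with a summed level of 18.2 to 21.8 FPKM in vehicle and 25.4 to 26.4 in HR-19011. Of 8 fibroblast and epithelial markers, 3 reached it, EPCAM, KRT8 and KRT18, and the sum of the 8 went from 288-304 to 692-708 FPKM. Whether these shifts have a part in the transporter results was not tested. In bulk RNA, fewer cells of a type and less RNA per cell cannot be told apart.

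Carrier RNA was higher in treated cells for nearly the whole set. Of the 10 genes, 9 rose and none fell in the limma test, beside 46.4% of all tested genes called higher and 38.0% lower. The median log2 fold change of the 10 was 1.19 against 0.07 for all tested genes. At an unadjusted p under 0.05 no gene of the set was lower. On the log2(FPKM + 1) scale a log2 fold change of at least 1 was reached by 6 of the 10. Of all tested genes, 12.0% were called with that size. The added 1 FPKM makes changes smaller on this scale, most for genes at low levels. SLC43A1, 2.06-fold higher by mean FPKM, was at 0.98. In all 10 genes each treated library was above each vehicle library, a pattern found in this direction for 46.9% of tested genes. The folds were unequal, from 11.6 for SLC6A9 to 1.34 for SLC1A5 among called genes, and SLC36A1 did not pass the test.

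**Figure D1:**
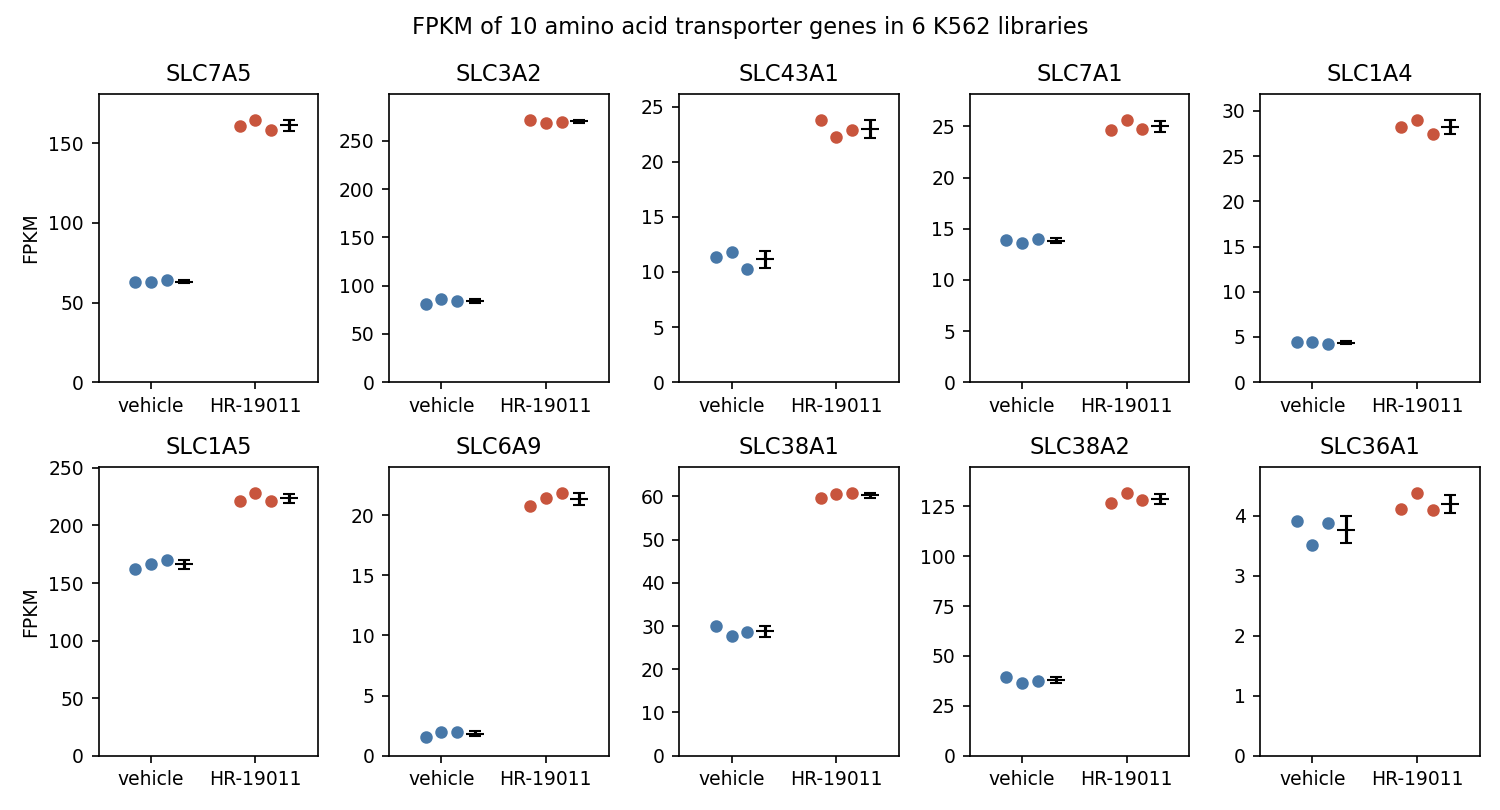
FPKM (vertical axis, from 0, scaled separately for each gene) of the 10 transporter genes in the 3 vehicle and 3 HR-19011 libraries; points are libraries and the black marks give the mean ± SD (n = 3). SLC6A9 and SLC1A4 start near the bottom of their panels at 1.84 and 4.36 FPKM and end at 21.4 and 28.2, whereas SLC36A1 stays near 4 FPKM.

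The exchanger of large neutral amino acids, known as LAT1, is made of the transport chain SLC7A5 and the glycoprotein heavy chain SLC3A2, which carries its partners to the cell surface. SLC7A5 (chromosome 16, 87830023 to 87869507, GRCh38.p14, as for all positions here) was listed at 62.8, 62.7 and 64.0 FPKM in vehicle libraries 1 to 3 and at 161, 165 and 158 FPKM in HR-19011. Every treated library was more than 2-fold above every vehicle library. The group means were 63.2 ± 0.751 and 161 ± 3.33 FPKM (SD, n = 3), 2.55-fold apart, with a log2 fold change of 1.34 (SE 0.0262 and adjusted p = 4.2e-10 in limma). The heavy chain SLC3A2 (chromosome 11, 62856109 to 62888860) was listed at 81.5, 86.2 and 84.2 FPKM in vehicle and at 272, 269 and 269 FPKM in HR-19011. Its mean went from 84.0 ± 2.35 to 270.1 ± 1.56 FPKM, 3.22-fold, with a log2 fold change of 1.67 (SE 0.0269 and adjusted p = 1.62e-10). In treated cells SLC3A2 was the highest of the 10 genes, and its place among all genes by mean FPKM went from 776 to 177. SNHG1, a noncoding RNA gene on the opposite strand whose start lies within 1 kb of a start of SLC3A2, fell from 171 ± 3.91 to 135 ± 3.00 FPKM. The small nucleolar RNA gene SNORD26, also within 1 kb of a start of SLC3A2, fell from 59.8 ± 4.25 to 15.5 ± 0.153 FPKM, a log2 difference of -1.88 (adjusted p = 1.97e-09 in limma). SNORD25, likewise within 1 kb, was near 0 in both groups, at 0.00289 and 0.00361 FPKM on average. How far an mRNA kit captures such small RNAs was not tested.

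Because both chains sit in one complex, the balance of their RNA was followed within each library, where library scaling cancels. SLC7A5 per SLC3A2 was 0.770, 0.728 and 0.760 in vehicle and 0.592, 0.613 and 0.587 in HR-19011. The ratio was lower in all 3 treated libraries, by 0.33 on the log2 scale. SLC3A2 also serves other transport chains, and the summed FPKM of SLC7A5, SLC7A6, SLC7A7, SLC7A8, SLC7A10 and SLC7A11 per SLC3A2 went from 1.12 ± 0.0326 to 0.754 ± 0.0142 (SD, n = 3). By FPKM the light-chain sum thus lay above the heavy chain in every vehicle library and below it in every treated one. Protein was not measured, so these ratios do not give the balance of the chains in the complex. Within that sum SLC7A6 fell from 22.6 ± 0.283 to 17.9 ± 0.426 FPKM and SLC7A8 from 6.94 ± 0.576 to 2.95 ± 0.0728 FPKM, while SLC7A11 rose from 1.37 ± 0.198 to 21.1 ± 0.259 FPKM. SLC7A7 was listed at 0.0180 ± 0.0192 and 0.280 ± 0.0217 FPKM, below the filter, and SLC7A10 at 0 in all libraries. The pseudogenes SLC7A5P1 and SLC7A5P2 share sequence with SLC7A5, and how reads were divided among copies was not given in the sources used here. Together the copies were at 2.12 to 2.35 FPKM in vehicle and 2.30 to 2.59 in HR-19011, and with them added to SLC7A5 its log2 fold change was 1.31.

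SLC43A1, also called LAT3, carries large neutral amino acids by facilitated diffusion, without a heavy chain or a counter-substrate. SLC43A1 (chromosome 11, 57484534 to 57515702) was listed at 11.3, 11.8 and 10.3 FPKM in vehicle and at 23.8, 22.2 and 22.9 FPKM in HR-19011, with groups that did not overlap. It rose 2.06-fold, a log2 fold change of 0.98 (SE 0.0522 and adjusted p = 1.55e-07 in limma). Its level per SLC7A5 was 0.176 ± 0.0144 in vehicle and 0.143 ± 0.00686 in HR-19011. SLC43A1 was therefore the smaller of these carriers of large neutral amino acids by RNA in both groups, and relative to SLC7A5 it was lower after treatment in each library.

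SLC7A1, or CAT1, is the main uptake route for the cationic amino acids arginine and lysine in many cells. SLC7A1 (chromosome 13, 29509414 to 29595688) was listed at 13.9, 13.6 and 14.01 FPKM in vehicle and at 24.7, 25.6 and 24.8 FPKM in HR-19011. It rose 1.81-fold, with a log2 fold change of 0.81 (SE 0.033 and adjusted p = 2.82e-08 in limma), from group means of 13.8 ± 0.216 and 25.0 ± 0.544 FPKM. Values within each group lay close together.

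The paralogs SLC1A4 and SLC1A5, also called ASCT1 and ASCT2, are sodium-dependent exchangers of small neutral amino acids. SLC1A4 takes alanine, serine and cysteine, and SLC1A5 is also a main carrier of glutamine. SLC1A4 (chromosome 2, 64988479 to 65023865) was listed at 4.46, 4.44 and 4.17 FPKM in vehicle and at 28.2, 29.03 and 27.4 FPKM in HR-19011, 6.48-fold higher. Its log2 fold change was 2.45 (SE 0.0403 and adjusted p = 1.87e-10 in limma). SLC1A5 (chromosome 19, 46774883 to 46788594) was the highest of the 10 genes in vehicle cells, at 162, 167 and 170.0 FPKM, and was listed at 221, 228 and 221 FPKM in HR-19011. It rose 1.34-fold, with a log2 fold change of 0.43 (SE 0.027 and adjusted p = 5.31e-07). That value was 0.19 after TMM scaling (adjusted p = 0.000156), and against a 1.5-fold change SLC1A5 was not called. The SLC1A4 level per SLC1A5 went from 0.0276, 0.0266 and 0.0245 to 0.127, 0.127 and 0.124, a 4.81-fold rise of the ratio, though SLC1A5 remained the larger of the pair in every library.

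Sodium-coupled symporters included the gene with the highest fold in the set. SLC6A9 encodes GLYT1, a glycine carrier used by erythroid cells, in which glycine is a precursor of heme. SLC6A9 (chromosome 1, 43996483 to 44031462) was listed at 1.58, 2.00 and 1.93 FPKM in vehicle and at 20.8, 21.5 and 21.8 FPKM in HR-19011. It rose 11.6-fold, and its log2 fold change of 2.98 (SE 0.0603 and adjusted p = 4.81e-10 in limma) is understated by the pseudocount, being 3.48 with a pseudocount of 0.1. By mean FPKM its place among all genes went from 10108 to 3028. The locus LOC107984948, on the opposite strand and overlapping the start of SLC6A9, was listed at 0.124 ± 0.0844 and 2.18 ± 0.129 FPKM, and CCDC24, which overlaps its other end, at 1.17 ± 0.153 and 1.53 ± 0.131 FPKM. The libraries were made with a stranded kit, but strand use in counting was not given in the sources used here, and reads of these overlaps cannot be told apart with certainty.

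SLC38A1 and SLC38A2, also called SNAT1 and SNAT2, are sodium-coupled carriers of glutamine, alanine and other small neutral amino acids, and SLC38A2 is known for its induction when amino acids are scarce. SLC38A1 (chromosome 12, 46183063 to 46269043) was listed at 30.1, 27.6 and 28.6 FPKM in vehicle and at 59.5, 60.5 and 60.7 FPKM in HR-19011. It rose 2.09-fold, a log2 fold change of 1.04 (SE 0.0355 and adjusted p = 9.31e-09 in limma). SLC38A2 (chromosome 12, 46358188 to 46372773) was listed at 39.5, 36.5 and 37.4 FPKM in vehicle and at 127, 132 and 128 FPKM in HR-19011. It rose 3.41-fold, a log2 fold change of 1.74 (SE 0.0347 and adjusted p = 4.49e-10). SLC38A2 was the more abundant paralog in every library, and SLC38A1 per SLC38A2 went from 0.761 ± 0.00443 to 0.468 ± 0.00725 (SD, n = 3). The antisense gene SLC38A2-AS1, whose start lies beside that of SLC38A2, was listed at 0 in 5 of the 6 libraries.

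SLC36A1, or PAT1, is a proton-coupled carrier of small neutral amino acids that is found at the surface of some cells and on lysosomes in many. SLC36A1 (chromosome 5, 151344596 to 151556085) was listed at 3.92, 3.51 and 3.88 FPKM in vehicle and at 4.11, 4.37 and 4.10 FPKM in HR-19011. The groups did not overlap, but the nearest values were 3.92 and 4.10 FPKM. Its log2 fold change was 0.12 (SE 0.0528, 95% interval 0.0039 to 0.245 before adjustment, adjusted p = 0.0525 in limma). The direction depended on the scaling: it was -0.067 after TMM scaling and -0.16 after quantile normalization (adjusted p = 0.015), and 0.25 after conversion to TPM (adjusted p = 0.00251). Without vehicle replicate 1 the value was 0.15 and passed the test (adjusted p = 0.046).

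**Figure D2:**
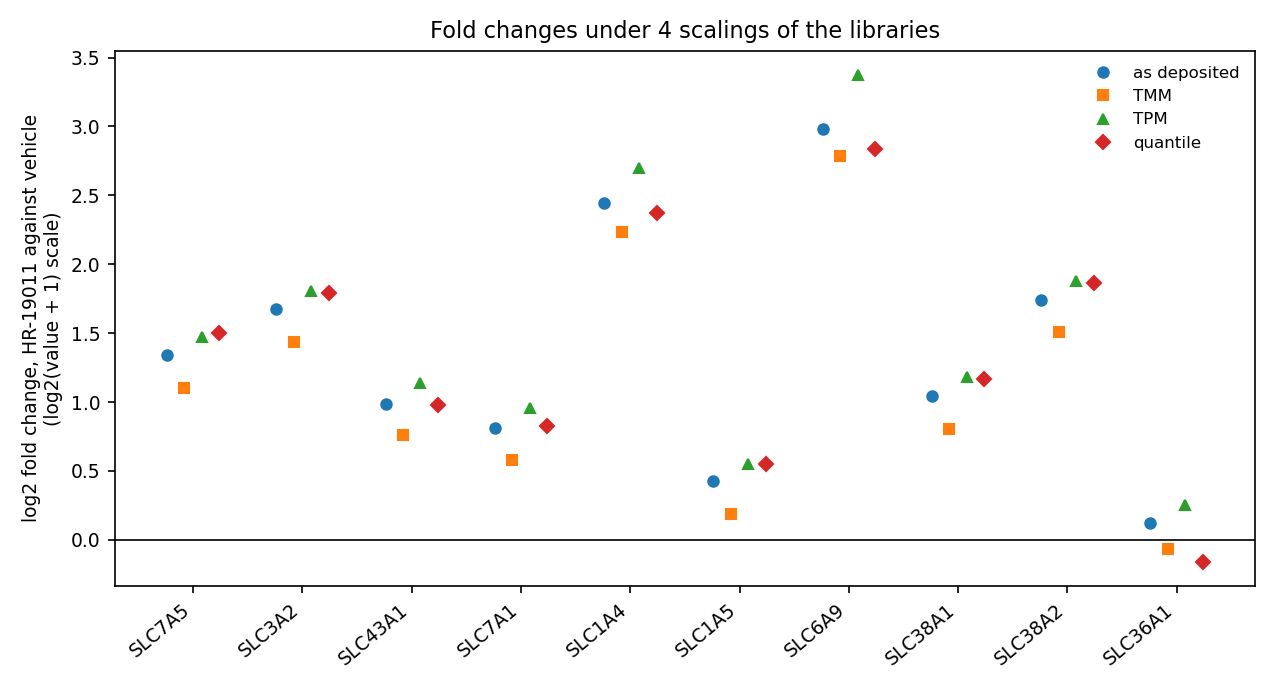
Log2 fold changes (vertical axis, log2(value + 1) scale, HR-19011 against vehicle) of the 10 transporter genes with the values as deposited and after TMM, TPM and quantile scaling of the libraries. SLC36A1 crosses 0, between -0.16 and 0.25, and the other 9 genes stay above 0 under these 4 scalings, with SLC1A5 lowest at 0.19 after TMM.

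Summed over the 10 genes, carrier RNA was 411, 415 and 418 FPKM in vehicle and 942, 956 and 939 FPKM in HR-19011, 2.28-fold higher. SLC3A2 contributed 35.1% of that difference, SLC7A5 18.5%, SLC38A2 17.1% and SLC1A5 10.8%. The make-up of the sum changed with it. SLC1A5 held 40.1% ± 0.618 of the sum in vehicle and 23.6% ± 0.177 in HR-19011 (SD, n = 3), SLC3A2 20.2% ± 0.475 and 28.6% ± 0.391, and SLC38A2 9.11% ± 0.443 and 13.6% ± 0.15. SLC6A9 went from 0.443% ± 0.0505 to 2.26% ± 0.0604 and SLC1A4 from 1.05% ± 0.0471 to 2.98% ± 0.0579.

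**Figure D3:**
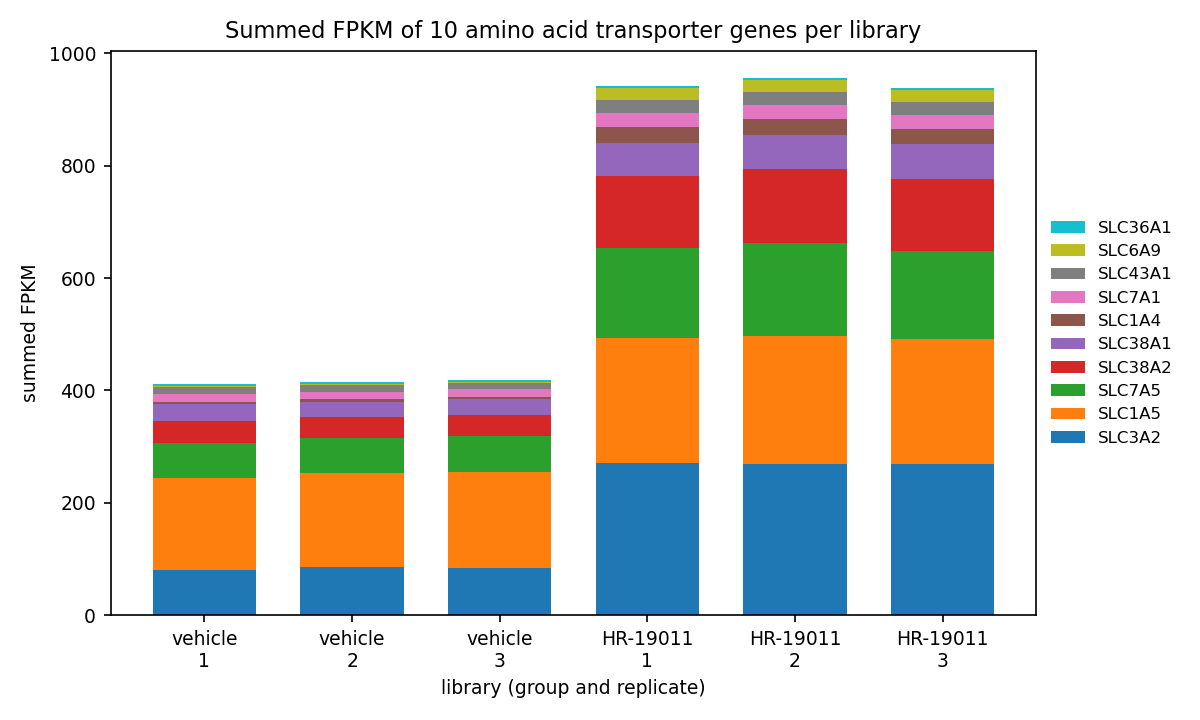
Summed FPKM (vertical axis, from 0) of the 10 transporter genes in each of the 6 libraries, with each gene as a coloured segment. The 3 vehicle bars end between 411 and 418 FPKM and the 3 HR-19011 bars between 939 and 956, and SLC3A2 takes the place of SLC1A5 as the largest segment.

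In vehicle cells the order of levels from highest to lowest was SLC1A5, SLC3A2, SLC7A5, SLC38A2, SLC38A1, SLC7A1, SLC43A1, SLC1A4, SLC36A1 and SLC6A9. In treated cells it was SLC3A2, SLC1A5, SLC7A5, SLC38A2, SLC38A1, SLC1A4, SLC7A1, SLC43A1, SLC6A9 and SLC36A1. The ranges of neighbours over the 3 libraries did not overlap in either order. SLC3A2 thus passed SLC1A5, SLC1A4 passed both SLC7A1 and SLC43A1, and SLC6A9 passed SLC36A1.

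The sum and the 5 ratios between genes were compared with exact two-sided permutation tests of 3 against 3 libraries. Each of these 6 exact permutation tests gave p = 0.1, the smallest p such a design can give, and 0.1 after Benjamini-Hochberg adjustment over the 6, so none can pass 0.05. In each of the 6, values of treated libraries lay wholly to one side of those of vehicle libraries.

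**Figure D4:**
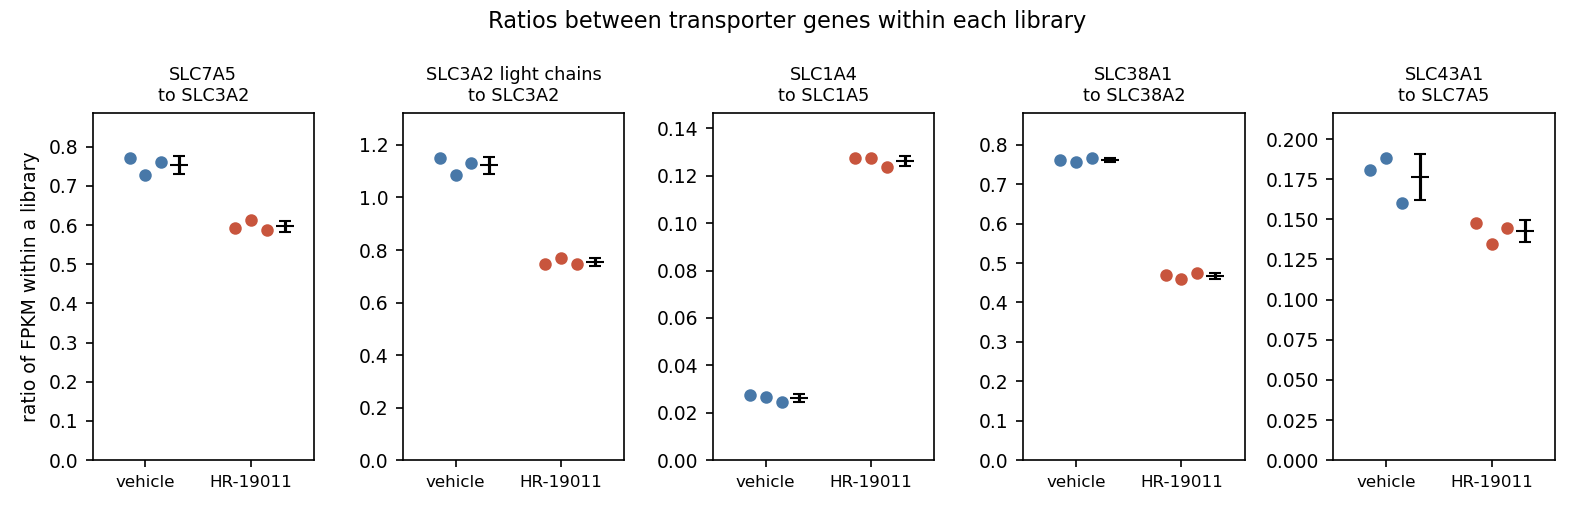
Ratio of FPKM within a library (vertical axis, from 0) for SLC7A5 to SLC3A2, the summed SLC3A2 light chains to SLC3A2, SLC1A4 to SLC1A5, SLC38A1 to SLC38A2 and SLC43A1 to SLC7A5; points are libraries and black marks the mean ± SD (n = 3). The ratio of SLC1A4 to SLC1A5 is higher in treated libraries (0.126 against 0.0262 on average), and the other 4 ratios are lower.

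The other amino acid carriers were called in each direction at close to the share of all tested genes. Of 36 further amino acid transporter genes, 17 were listed at 0 in all libraries and 10 reached the filter, of which 5 rose and 4 fell, with a median log2 fold change of 0.33, beside 46.4% of all tested genes called higher and 38.0% lower. SLC38A5, a carrier of glutamine, glycine and other neutral amino acids from the same family as SLC38A1 and SLC38A2, was listed at 114, 114 and 112 FPKM in vehicle and at 36.6, 37.8 and 36.5 FPKM in HR-19011. It fell 3.06-fold (log2 fold change -1.59, SE 0.0266, adjusted p = 2.01e-10 in limma), and from the most abundant of the 3 SLC38 genes in vehicle cells it became the least abundant in treated cells. SLC7A8, or LAT2, another partner of SLC3A2, fell by 1.01 on the log2 scale. The cystine carrier SLC7A11 had the highest log2 fold change of the 10, at 3.22, followed by SLC38A10 at 1.20, SLC38A6 at 0.95 and SLC43A2, the second facilitated carrier of large neutral amino acids called LAT4, at 0.82. As deposited, the 36 genes summed to 202 to 205 FPKM in vehicle and 187 to 188 FPKM in HR-19011.

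Lysosomal carriers, which return amino acids from protein breakdown to the cytosol, were called higher in 7 of 8 tested genes. Of 11 genes in the files 8 reached the filter, and of these 7 rose and 1 fell, with a median log2 fold change of 0.63. Over all tested genes the median was 0.07, with 46.4% called higher and 38.0% lower. SLC17A5, which exports sialic acid, rose 4.33-fold, the cationic amino acid exporter SLC66A1 2.21-fold, and the cystine exporter CTNS from 3.42 ± 0.215 to 8.30 ± 1.39 FPKM. SLC38A9, the arginine-sensing carrier that acts on mTORC1, rose 1.81-fold and SLC38A7 1.54-fold. MFSD12, which is needed for cysteine import into lysosomes, fell 1.62-fold. After TMM scaling 6 lysosomal genes were called higher and 1 lower, beside 4145 and 5945 of all 11856 tested genes.

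Carriers of other nutrients held more lower than higher calls. Their list also holds BSG, which is not itself a carrier and was called lower. Of 28 genes for sugars, monocarboxylates, nucleosides, vitamins, ions and other solutes, 22 reached the filter, 7 rose and 12 fell, with a median log2 fold change of -0.28, beside 46.4% of all tested genes called higher and 38.0% lower. After TMM scaling 4 were called higher and 16 lower, a scaling under which lower calls also outnumbered higher ones over all tested genes, 5945 to 4145. The folate carrier SLC19A1 fell 4.68-fold, the multivitamin carrier SLC5A6 3.62-fold, and the nucleoside carriers SLC29A1 and SLC29A2 2.86-fold and 2.61-fold. The glucose carrier SLC2A3, whose near-identical relative SLC2A14 may share its reads, rose 1.74-fold. SLC2A1, the more abundant glucose carrier in vehicle cells, fell 1.59-fold, from 55.2 ± 0.319 to 34.8 ± 1.69 FPKM. Differences between these lists and the 10 transporters were not tested.

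**Figure D5:**
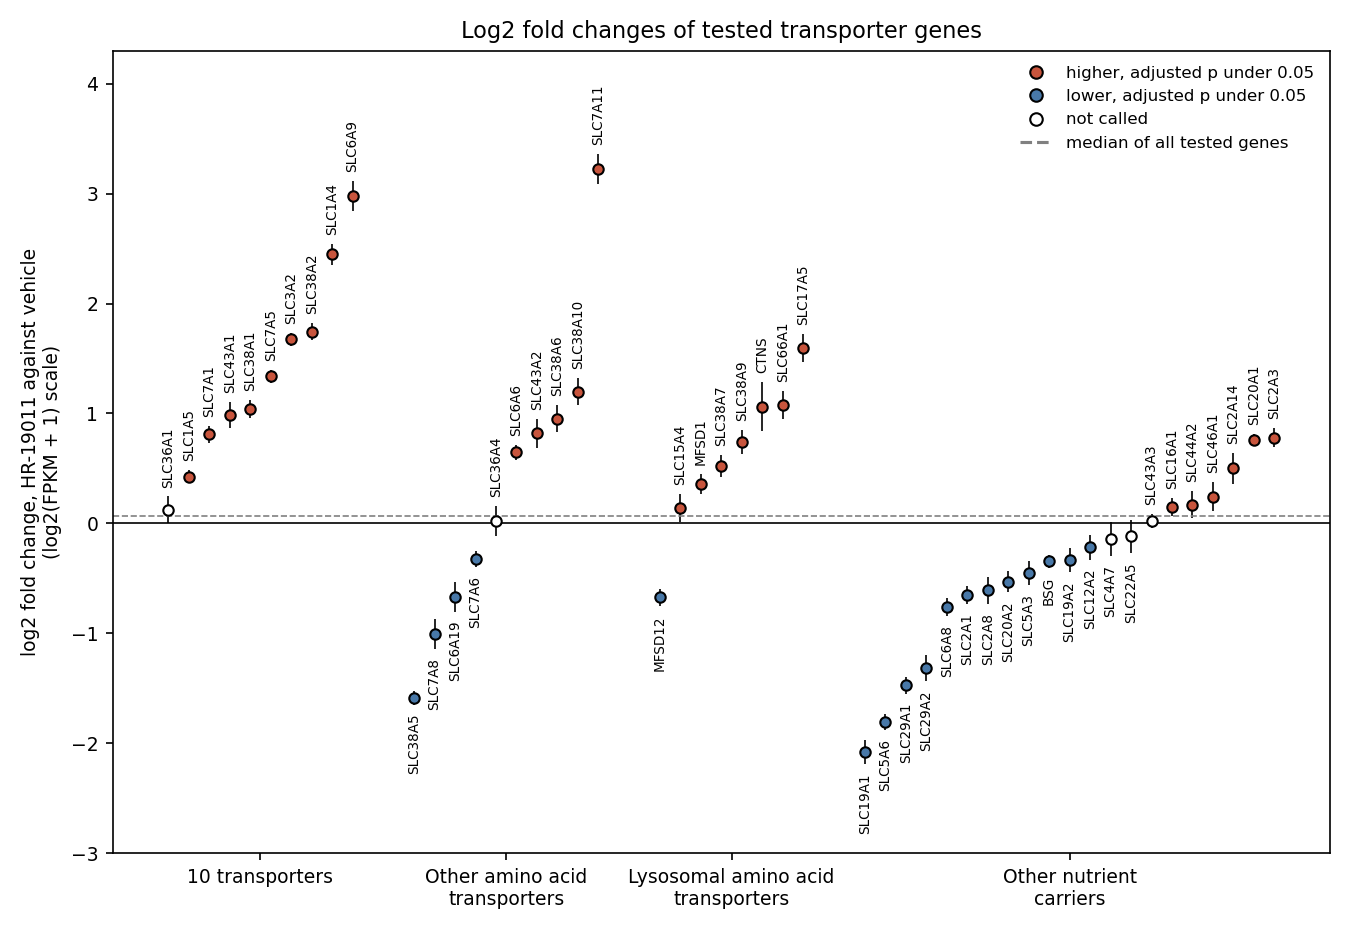
Log2 fold changes (vertical axis, log2(FPKM + 1) scale, HR-19011 against vehicle) with 95% intervals for the tested genes of the 10 transporters and the 3 comparison lists, coloured by call, except 1 of the other nutrient carriers that is not shown; the dashed line is the median of all tested genes, 0.07. The 10 transporters lie at or above 0.12, whereas the other amino acid transporters run from -1.59 for SLC38A5 to 3.22 for SLC7A11.

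ATF4 itself was listed at 105, 120 and 113 FPKM in vehicle and at 332, 241 and 261 FPKM in HR-19011, and its partner DDIT3 at 13.6 ± 1.05 and 119 ± 1.12 FPKM (SD, n = 3). The library with the highest ATF4 value, HR-19011 replicate 1, was the highest of its group for SLC3A2 and SLC43A1 and not for the other 8 transporters. The genes outside the set whose 6 values, taken relative to their vehicle mean on the log2(FPKM + 1) scale, lay nearest to the average of the 10 transporters were SP6, DNASE2, STXBP2, DOCK8 and ST6GAL1. Their log2 fold changes were 1.34, 1.36, 1.34, 1.37 and 1.37, and their distances from that average over the 6 libraries were 0.0398 to 0.0527.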

How the data were processed

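The authors deposited FPKM per gene, 1 table per library, per the file headers. Per the labels' protocols, libraries were made with a stranded mRNA kit. Without roles, StringTie 2.1.3b, HISAT2 2.1.0, Trimmomatic 0.38, SAMtools 1.9, Bowtie2, DESeq2 1.24.0 and the build GRCh38 are listed per the submitters' processing notes. Treatment of multi-mapping reads was not given in the sources used here.

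Groups and replicate numbers came from sample titles. Members and lists were chosen with earlier results of these data known. Genes whose mean reached 1 FPKM entered limma 3.58.1 (R 4.3.3) as log2(FPKM + 1), with a pseudocount of 1 (group as the only term, mean-variance trend, two-sided, Benjamini-Hochberg over 11856 genes), after a test on simulated data. Folds are ratios of group mean FPKM. At the best of many candidate steps, at most 24.9% of low values lay within 0.1 of a whole number of reads, against 20% by chance at 1 fixed step, so no reads were recovered. Libraries of a group shared at most 0.0208% of their values, so each was counted once.

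From each comparison list the 6 called genes of largest change were named by rule, except 1 that is not reported here; SLC7A6, SLC7A7, SLC7A10 and the marker genes fall outside that rule and were named after their values were seen. ATF4, DDIT3 and the 5 genes of nearest pattern were also named by rule. The rule further covered genes overlapping a transporter or starting within 1 kb of it, of which only some are named here. Others lie at SLC7A5, SLC1A4, SLC38A1 and SLC36A1 and are not named. SLC66A4, another name of CTNS, was counted once. Positions, windows and sequences are from RefSeq, GRCh38.p14, matched by gene identifier for all 10 genes. Alternatives were other pseudocounts, filters and scalings, no variance trend, a replicate block, a test against 1.5-fold and each library left out.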

Additional observations from a re-analysis of the deposited data

How the results depend on the processing

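Of the 10 transporters, 9 were called higher under TMM and quantile scaling and in 5 of the 6 fits with 1 library left out. All 10 were called higher without vehicle replicate 1, after conversion to TPM, without a variance trend and with a pseudocount of 5. Over all 11856 tested genes, those called higher were 4145 under TMM, 4605 under quantile scaling and 6269 as TPM. They were 5489 without a variance trend, 5511 with a pseudocount of 5 and 5318 to 5419 with 1 library left out. Quantile normalization put 1, SLC36A1, lower (log2 fold change -0.16; -0.067 after TMM, not called). SLC36A1 was called in 5 of 16 alternatives and fell below the filter at a mean of at least 5 FPKM. Same-numbered libraries did not deviate together (correlations -0.0343, -0.00448 and -0.108, against -0.0338 to 0.0697 for different numbers). Deviations from means of 3 libraries cannot tell whether same-numbered libraries were handled together. With the replicate block 9 transporters were again called higher, 6 in place of 7 lysosomal genes, and 5435 of all genes higher and 4445 lower.

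The counts moved by over 1.5 times as follows. Against a 1.5-fold change, 2201 of all genes were higher and 1515 lower, 2 other amino acid transporters were lower, 4 lysosomal genes were higher and 0 lower, and 3 other carriers were higher and 5 lower; SLC1A5 was among the calls lost, leaving 8 transporters. The filter gave 8828 genes higher without one and 3347 at a mean of at least 5 FPKM, where 2 other amino acid transporters were lower. TMM left 4 other carriers higher. The first 2 changes follow from a stricter test and from the genes tested, and the cause of the changes with scaling was not tested.

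The log2 change of the summed FPKM, 1.19, was 0.95 under TMM, 1.31 under TPM, 1.30 under quantile normalization and 1.17 with equal totals without globin and mitochondrial genes. Quantile normalization gave log2 ratio changes of -0.29 in place of -0.33 for SLC7A5 to SLC3A2, 2.04 in place of 2.27 for SLC1A4 to SLC1A5, and -0.48 in place of -0.30 for SLC43A1 to SLC7A5, and a pseudocount of 1 FPKM gave 2.02 for SLC1A4 to SLC1A5. No count or direction above was reversed by leaving out 1 library. Depth is unknown, so counting error is not given.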
